A study of Mus musculus with 11 samples.

Results

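Cultured stromal cells that lack ANXA2 were set directly against cells that lack ANXA5, with 3 libraries of the first knockout and 4 of the second, 7 of the 11 libraries in the series. The cells are primary mesenchymal stromal cells from mouse bone marrow, untreated, from animals on the C57/BL6 background, and the other 4 libraries are wild type and served here only as a reference level. Libraries were assigned to groups by genotype label alone, and the groups and gene lists were chosen with earlier results of these data known. The sources used here do not say how each allele was made, whether animals were pooled, or which sex and age they had. They name no separate animals or cultures either, so a p-value here speaks only of the spread among libraries, which could be partly technical. ANXA2 knockout libraries are called 1, 3 and 4 after their columns, and ANXA5 knockout and wild type libraries 1 to 4.

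Annexins are cytosolic proteins that attach to negatively charged phospholipids when calcium rises. ANXA2 binds its partner S100A10 and holds plasminogen activators at the cell surface, and takes part in membrane traffic and actin attachment. ANXA5 forms a lattice on exposed phosphatidylserine, where it shields the lipid from clotting factors and helps to seal membrane tears.

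Values are reads per gene divided by 1 scaling factor per library, called normalised reads, and they were compared over the 16370 genes that reached 10 such reads in at least 3 of the 7 knockout libraries. Each knockout library held 26.1 to 35.6 M reads in the genes shared by both deposited tables. All 18 stromal identity genes, among them Pdgfra, Thy1 and Cxcl12, were tested, and 0 of them differed past the threshold. Blood cell genes were abundant too: Ngp, a neutrophil granule gene, lay at 107495 to 198727 normalised reads in the ANXA2 knockout and at 133321 to 198077 in the ANXA5 knockout. Xist, the RNA of the inactive X chromosome, lay at 732, 253 and 227 in the ANXA2 knockout and at 799, 2.12, 1709 and 536 in the ANXA5 knockout, so it differed widely within each genotype, and 29 genes were called with Xist as a covariate. ANXA2 library 1 stood apart on the first principal component, which held 36.8% of the variance.

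A total of 43 genes differed between the knockouts, 27 higher and 16 lower in the ANXA2 knockout, by limma with Benjamini-Hochberg adjustment at 0.05. That is 0.263% of the tested genes, with 0.165% higher and 0.0977% lower, while 13.9% had an unadjusted p under 0.05, 7.84% higher and 6.1% lower. The 3 ANXA2 libraries did not overlap the 4 ANXA5 libraries in any of the 43, and neither did they in 12.7% of all tested genes. The median log2 difference over all genes was 0.01. Besides the 2 targets, the called genes include others on chromosome 9, with 7 genes on chromosome 11 and 5 on chromosome 14. Immunoglobulin segments and early response and inflammatory genes are also among them. The plot of all tested genes shows how few lie far from 0 among the abundant ones.

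**Figure D1:**
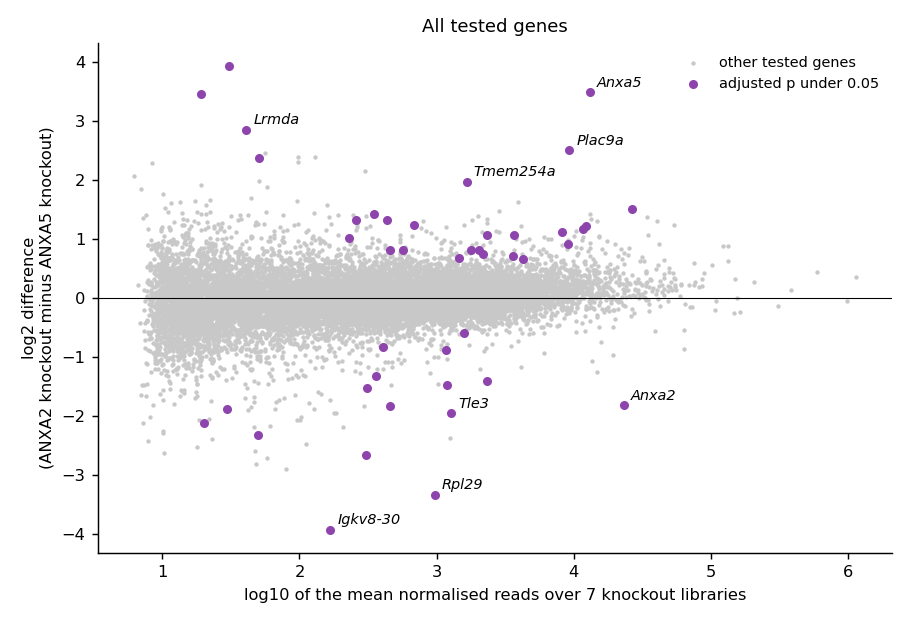
Each point is 1 of 16370 tested genes, with the log10 of its mean normalised reads over the 7 knockout libraries on the x axis and its log2 difference (ANXA2 knockout minus ANXA5 knockout) on the y axis. The 43 purple points have an adjusted p under 0.05; Anxa5 and Anxa2 are among the most abundant of them.

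The count of 43 depended on which libraries were in the fit. It fell to 10 without ANXA2 library 3 and to 20, 25, 21 and 16 without ANXA5 library 1, 2, 3 or 4, and it was 48 without ANXA2 library 1 and 95 without ANXA2 library 4. Anxa5, Anxa2, Plac9a, Rpl29, Tmem254a, Abhd14b and Igkv8-30 were among the genes called in all 18 alternatives, and 34 of the 43 lost their call without at least 1 library. The sign of the difference was the same for all 43 in each of the 18 alternatives in which they were tested.

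Each knockout was low for its own target. Anxa2 counted 11707, 9010 and 8016 normalised reads in the ANXA2 knockout libraries, against 33154, 35324, 31632 and 33738 in the ANXA5 knockout and 31311 to 34742 in wild type. ANXA5 knockout cells thus had Anxa2 RNA at the wild type level, and ANXA2 knockout cells kept a part of theirs. The log2 difference was -1.82 (SE 0.15, adjusted p 0.00146 by limma), a 3.54-fold lower level. Anxa5 counted 31340, 27692 and 22663 in the ANXA2 knockout, against 2434, 2342, 2475 and 2365 in the ANXA5 knockout and 23761 to 28130 in wild type. Here the ANXA2 knockout overlapped wild type and the ANXA5 knockout lay far below both, with a log2 difference of 3.49 (SE 0.12, adjusted p 3.38e-06 by limma), or 11.2-fold. An exact two-sided permutation test over the 7 libraries gave p = 0.0286 for each, the smallest value that 35 splits allow. Whether the remaining reads come from a transcript that can be translated was not tested.

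None of the other 8 tested annexins passed the threshold, and 7 of them lay above 0. Anxa11 was highest by p: it counted 3424, 4310 and 4566 against 3263, 3352, 2423 and 3607, groups that overlap, with a log2 difference of 0.38 (adjusted p 0.33 by limma). Anxa1, an abundant annexin of inflammation control, differed by 0.41 (adjusted p 0.391 by limma). The median over all 10 annexins was 0.30, and 0.06 without ANXA2 library 1. S100a10, the partner of ANXA2, counted 8679, 7720 and 9223 against 7810, 8288, 7299 and 6926, overlapping values with a log2 difference of 0.17 (adjusted p 0.508 by limma). All 9 S100 and AHNAK genes missed the threshold.

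Chromosome 9, which carries Anxa2, held 16 of the 43 genes, Anxa2 included. That was 38.1% of the called genes with a known position, against 5.61% of those tested, and 10 of the 16 were lower in the ANXA2 knockout. The lower ones came with the larger differences. Rpl29, a protein of the large ribosomal subunit, counted 129, 141 and 199 in the ANXA2 knockout against 1694, 1446, 1662 and 1490 in the ANXA5 knockout. The ANXA5 knockout overlapped wild type (1258 to 1618), and the ANXA2 knockout was 10.1-fold lower, a log2 difference of -3.34 (SE 0.15, adjusted p 1.54e-05 by limma). Its neighbour Abhd14b, an alpha/beta hydrolase, counted 59.3, 102 and 66.3 against 515, 411, 535 and 444, with wild type at 453 to 669. The log2 difference was -2.67 (SE 0.20, adjusted p 0.000763 by limma). These 2 starts lie 36.98 and 36.99 Mb from that of Anxa2.

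Glb1, the lysosomal beta-galactosidase, counted 811, 796 and 736 in the ANXA2 knockout against 1555, 1423, 1443 and 1375 in the ANXA5 knockout, a tight separation with a log2 difference of -0.89 (SE 0.09, adjusted p 0.00587 by limma). Coro2b, an actin-binding coronin, differed by -1.83, Fam219b by -1.32 and Slc35g2, a solute carrier, by -2.32. Acpp, an acid phosphatase, differed by -1.47 and Tle3, a Groucho co-repressor, by -1.96. For Tle3 the wild type libraries ran from 548 to 2102 and so overlapped both knockouts. Without ANXA2 library 3 the adjusted p was 0.0514 for Glb1, 0.0523 for Fam219b and 0.0536 for Coro2b, and those of Slc35g2, Acpp and Tle3 rose to at most 0.107, 0.107 and 0.132 when 1 of 5 libraries was left out.

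Of the 6 chromosome 9 genes that were higher in the ANXA2 knockout, Bckdhb and Pccb differed most and are described with amino acid breakdown, and Icam1 with the inflammatory genes. Phldb1 differed by 0.71, Lysmd2 by 0.82 and Clasp2, which anchors microtubule tips, by 0.68. The adjusted p of these 3 rose to at most 0.107, 0.107 and 0.141 on leaving out 1 library, which ended the call for 5, 4 and 5 of the 7 libraries. The differences did not run one way along the chromosome: its 917 tested genes had a median of -0.00065, and 191 of them (20.8%) had an unadjusted p under 0.05, 84 higher and 107 lower.

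The 5 Mb to either side of Anxa2 held no other called gene, but an unadjusted p under 0.05 was more frequent near each target. The windows reached 5, 10, 20 and 50 Mb to either side of the start of the target. Around Anxa2, limma called 0 of 81, 3 of 151, 5 of 308 and 15 of 793 other genes, beside 0.263% of all tested genes. Those 15 were all the other called genes among the 917 tested on the chromosome. The shares with an unadjusted p under 0.05 were 29.6%, 30.5%, 24.0% and 21.9%, beside 13.9% of all tested genes. Around Anxa5 on chromosome 3 the windows held 47, 69, 122 and 251 other genes, with Mccc1 the only call. Those shares were 27.7%, 26.1%, 17.2% and 17.9%, and the cause of the higher shares was not tested. The plot of log2 difference by distance shows the called genes on chromosome 9 from -48.4 Mb (Icam1) to 44.9 Mb (Glb1).

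**Figure D2:**
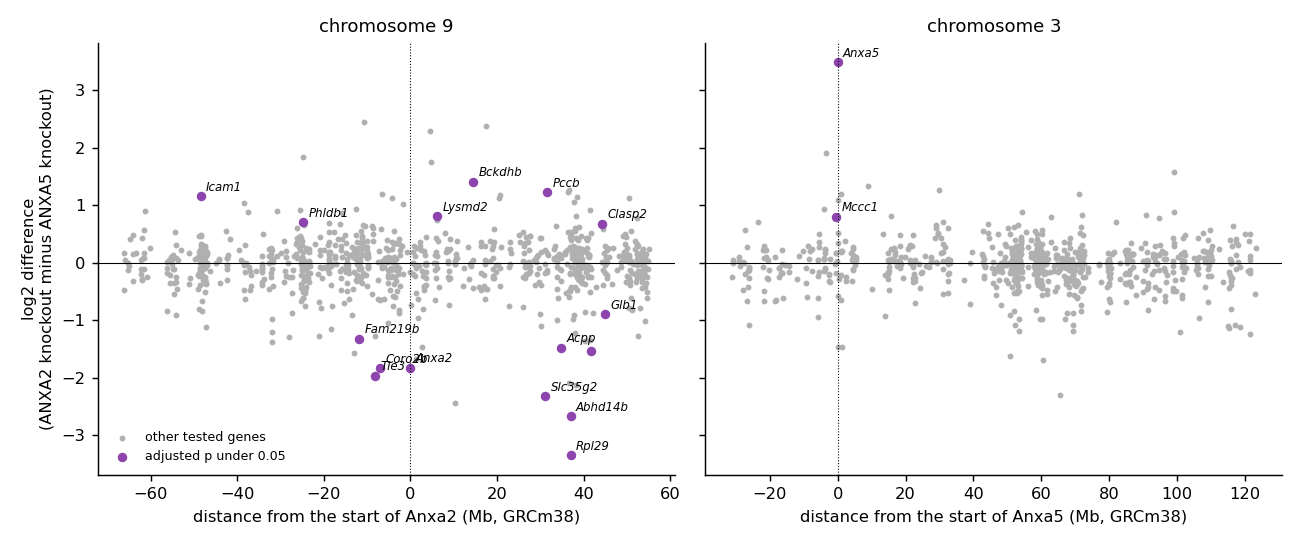
Log2 difference (ANXA2 knockout minus ANXA5 knockout) of each tested gene against its distance in Mb from the start of Anxa2 on chromosome 9 (left) and of Anxa5 on chromosome 3 (right); purple points have an adjusted p under 0.05. On chromosome 9, 16 called genes are spread over most of the length; on chromosome 3 only Anxa5 and Mccc1 are called.

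Chromosome 14 held 5 called genes, all higher in the ANXA2 knockout: Plac9a, Tmem254a, Lrmda, Egr3 and Fam167a. That was 11.9% of the called genes with a known position, against 3.29% of those tested. Chromosome 11 held more, 7 called genes, or 16.7% against 7.90%, of which 5 were higher and 2 lower. Plac9a and Tmem254a have near copies, so their promoters are shown before their values. The windows are the 250 bases before the RefSeq transcript start on the strand of the gene, build GRCm38.p6: Plac9a at chr14:25902894-25903143, minus strand, and Plac9b at chr14:26182352-26182601, minus strand. Capitals mark the longest run that both share letter for letter, 172 bases.
Plac9a: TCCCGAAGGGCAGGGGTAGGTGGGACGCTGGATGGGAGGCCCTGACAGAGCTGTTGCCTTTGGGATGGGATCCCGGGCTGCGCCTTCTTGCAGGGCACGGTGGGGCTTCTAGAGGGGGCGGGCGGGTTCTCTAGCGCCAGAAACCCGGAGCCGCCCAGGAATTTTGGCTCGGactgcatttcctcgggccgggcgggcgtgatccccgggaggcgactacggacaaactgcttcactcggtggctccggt
Plac9b: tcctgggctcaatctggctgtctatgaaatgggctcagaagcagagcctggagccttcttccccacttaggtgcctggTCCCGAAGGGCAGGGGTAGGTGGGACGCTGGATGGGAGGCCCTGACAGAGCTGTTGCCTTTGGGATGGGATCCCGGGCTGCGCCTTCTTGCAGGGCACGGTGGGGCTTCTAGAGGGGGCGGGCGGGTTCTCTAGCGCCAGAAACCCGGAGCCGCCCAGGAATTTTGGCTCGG
The window of Tmem254a shares all 250 bases with that of Tmem254c and a run of 234 with that of Tmem254b. The sources used here do not say how reads were split among such copies, so the values of Plac9a and Tmem254a may include reads of a copy.

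Plac9a, which encodes a small secreted protein, counted 18263, 16281 and 17916 in the ANXA2 knockout against 3076, 3496, 3178 and 2673 in the ANXA5 knockout and 3276 to 4277 in wild type. The ANXA2 libraries stood alone, with a log2 difference of 2.50 (SE 0.11, adjusted p 1.54e-05 by limma), or 5.65-fold. Tmem254a, a membrane protein gene, counted 3251, 2803 and 2592 against 822, 707, 759 and 647, and wild type lay at 691 to 964. That too set the ANXA2 knockout apart from both other genotypes, by 1.97 against the ANXA5 knockout (SE 0.12, adjusted p 0.000119 by limma). Lrmda, a gene of pigment cell differentiation, counted 65.3, 80.7 and 98.3 against 16, 10.6, 8.66 and 7.48, a log2 difference of 2.85 (adjusted p 0.00747 by limma, and 0.0683 without ANXA2 library 3). Fam167a differed by 0.82 (adjusted p 0.0247 by limma), and that call was lost without 5 of the 7 libraries, with adjusted p up to 0.13.

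**Figure D3:**
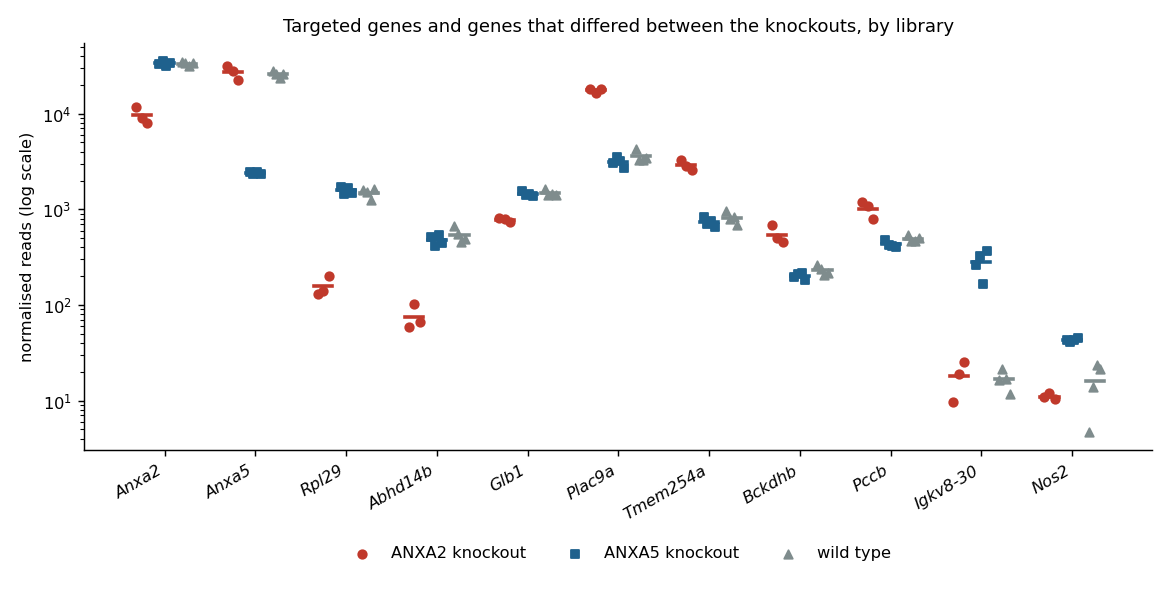
Normalised reads (log scale) in each library for the 2 targeted genes and 9 genes that differed between the knockouts; red circles are ANXA2 knockout (n = 3), blue squares ANXA5 knockout (n = 4), grey triangles wild type (n = 4), and bars mark means. For 8 of these 11 genes the wild type points sit with the ANXA5 knockout; for Anxa5, Igkv8-30 and Nos2 they sit nearer the ANXA2 knockout.

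Wild type libraries served as a reference level for the called genes. In 28 of the 43 genes the wild type range overlapped that of the ANXA5 knockout alone, in 4 that of the ANXA2 knockout alone, in 9 both and in 2 neither. Over all 16370 tested genes the same counts were 1315, 869, 14016 and 170. The knockouts did not overlap in any of the 43 but overlapped in most tested genes, so the 2 sets of counts are not alike. The ANXA2 range rests on 3 libraries and the ANXA5 range on 4, which can also shift these counts. They therefore do not show by themselves which knockout changed. The wild type mean lay between the means of the 2 knockouts in 30 of the 43 genes, and in 5977 of all tested. The 28 of 43 with wild type at the ANXA5 level alone became 170 of the 527 genes called by DESeq2, 32 of 89 with a replicate block and 31 of 95 without ANXA2 library 4. The 4 genes in which the ANXA5 knockout stood alone were Anxa5, Mccc1, Igkv8-30 and Nos2. Wild type libraries varied widely in some genes, and the comparison with them was not part of the fit. Xist lay at 2039 and 2227 in wild type libraries 1 and 2 and at 1.30 and 1.07 in libraries 3 and 4. Phldb1, a called gene, lay at 1605 and 2023 in the first pair and at 3756 and 3625 in the second. A wild type range can thus span unlike libraries.

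Enzymes that break down the branched-chain amino acids leucine, isoleucine and valine gave 3 called genes of 21 tested, all higher in the ANXA2 knockout. Of all tested genes, 0.165% were called higher. All 3 lie on a chromosome of a targeted gene, Bckdhb and Pccb on chromosome 9 and Mccc1 on chromosome 3. Bckdhb, a subunit of the dehydrogenase that commits these amino acids to oxidation, counted 681, 503 and 451 against 196, 209, 218 and 182, with wild type at 206 to 263. Its log2 difference was 1.42 (SE 0.16, adjusted p 0.00875 by limma). Pccb, a subunit of propionyl-CoA carboxylase, counted 1192, 1070 and 793 against 478, 421, 410 and 408, and differed by 1.23 (SE 0.15, adjusted p 0.0133 by limma). For these 2 the ANXA2 knockout was above wild type and ANXA5 knockout alike.

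Mccc1, a subunit of methylcrotonyl-CoA carboxylase in leucine breakdown, went the other way round with respect to wild type. It counted 699, 570 and 545 in the ANXA2 knockout, 549 to 669 in wild type, and 329, 340, 386 and 326 in the ANXA5 knockout. So the ANXA5 knockout was the low group, and the log2 difference of 0.80 (SE 0.13, adjusted p 0.0485 by limma) separates it from the ANXA2 knockout; the gene starts at -0.475 Mb from Anxa5. Among the 21 enzymes 14 lay above 0 with a median of 0.11, which was 0.06 without ANXA2 library 1 and 0.20 without library 4, while 51.4% of all genes did. The calls were lost without ANXA2 library 3 for Bckdhb (adjusted p 0.061), without 3 libraries for Pccb (0.0581 to 0.0826) and without 6 for Mccc1 (0.0789 to 0.17).

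Immediate early genes, the transcription factors switched on within minutes of a stimulus, were higher in the ANXA2 knockout in 20 of 21 cases, with a median log2 difference of 0.71 beside 0.01 over all genes. The test called 3 higher and 0 lower, 16 had an unadjusted p under 0.05 in the same direction, and in 14 the libraries did not overlap, as in 6.77% of all genes on the higher side. The list was among those with earlier results known, so its direction is not independent evidence.
Fosb, an AP-1 subunit, counted 46729, 37148 and 41650 in the ANXA2 knockout and 16897, 18593, 11162 and 13383 in the ANXA5 knockout. The groups were apart by 1.50 (SE 0.19, adjusted p 0.0188 by limma), or 2.83-fold. Wild type spanned both, at 9589, 11486, 39524 and 20541, with library 3 high. Klf4, a zinc finger factor, counted 18577, 15386 and 21082 against 8116, 9550, 6835 and 7010, a log2 difference of 1.22 (SE 0.16, adjusted p 0.0188 by limma). Egr3 counted 655, 583 and 738 against 235, 356, 239 and 239, a log2 difference of 1.31 (SE 0.17, adjusted p 0.0188 by limma).

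Members that missed the threshold, named after their values were seen, leaned the same way. Nr4a1, an orphan nuclear receptor, differed by 0.91 (adjusted p 0.194 by limma) and Fos, the founding AP-1 gene, by 0.62 (adjusted p 0.344 by limma). The mean log2 level of the list relative to the knockout average was 0.74, 0.25 and 0.28 in ANXA2 libraries 1, 3 and 4, and -0.27, -0.02, -0.61 and -0.37 in ANXA5 libraries 1 to 4. No ANXA2 library fell to the level of an ANXA5 library, and wild type lay at -0.29, -0.40, 0.38 and -0.14. With all 11 libraries in the fit the adjusted p by limma was 0.171 for Fosb, 0.149 for Klf4 and 0.151 for Egr3. On leaving out 1 library the call was lost without 3 libraries for Fosb (adjusted p 0.0559 to 0.0936), 4 for Klf4 (0.0536 to 0.089) and 4 for Egr3 (0.0727 to 0.089). Without ANXA2 library 1 the median was 0.65.

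NF-kB targets and cytokines leaned the same way, with 18 of 22 above 0 and a median of 0.55. An unadjusted p under 0.05 was reached by 12 on the higher side and 2 on the lower. Their mean log2 level was 0.50, 0.01 and 0.37 in ANXA2 libraries 1, 3 and 4, and -0.33, 0.13, -0.34 and -0.34 in ANXA5 libraries 1 to 4. As a list, ANXA2 library 3 thus lay below ANXA5 library 2. Of the 22, 1 was called higher and 1 lower in the ANXA2 knockout. Icam1, the endothelial and stromal adhesion molecule for leukocyte integrins, counted 19245, 14133 and 17335 in the ANXA2 knockout, 8693, 8581, 6133 and 6914 in the ANXA5 knockout and 8675 to 12949 in wild type. It was highest in the ANXA2 knockout, by 1.16 (SE 0.16, adjusted p 0.0266 by limma). The gene of inducible nitric oxide synthase, Nos2, counted 10.9, 11.9 and 10.3 against 43.0, 41.3, 43.3 and 45.7, with 4.72 to 23.5 in wild type. Nos2 was thus high in the ANXA5 knockout alone, at a low count, and differed by -1.88 (SE 0.23, adjusted p 0.0151 by limma).

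The chemokines and cytokines named next were picked after their values were seen and did not pass the threshold. Cxcl1, a neutrophil attractant, counted 29125, 12797 and 18443 against 6667, 13848, 7268 and 4819, and Il6 3845, 1532 and 2987 against 976, 1634, 1054 and 699. In both, ANXA5 library 2 overlapped the ANXA2 group. The log2 differences were 1.33 (adjusted p 0.193) and 1.32 (adjusted p 0.171) by limma, and those of Ccl2 and Ccl7 were 1.33 and 1.48 (adjusted p 0.237 and 0.22). Nfkbia, the inhibitor that NF-kB induces, counted 30689, 24286 and 25124 against 16398, 20152, 12656 and 16768 without overlap (log2 difference 0.71, adjusted p 0.161 by limma). The median of the list was 0.40 without ANXA2 library 1. The call of Icam1 was lost without 6 of the 7 libraries (adjusted p 0.0529 to 0.107) and that of Nos2 without 5 (0.053 to 0.0853).

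Interferon response genes did not share this direction as a list: 14 of 27 were above 0 and the median was 0.02, with -0.03 to 0.09 on leaving out 1 library. Irf1, a transcription factor induced by both interferon-gamma and NF-kB, counted 13142, 11187 and 11302 against 5880, 6440, 4524 and 5135. The log2 difference was 1.12 (SE 0.14, adjusted p 0.0151 by limma), while wild type ran from 6212 to 13211 and so reached into the ANXA2 range. Irgm1, an interferon-inducible GTPase outside the list, differed by 0.81 (adjusted p 0.0266 by limma). The call of Irf1 was lost with all 11 libraries in the fit (adjusted p 0.0661 by limma). It was also lost without ANXA2 library 3 or ANXA5 libraries 1 or 4 (0.0506 to 0.0853), and that of Irgm1 without 5 libraries (0.0655 to 0.104).

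The promoters of the called genes Fosb, Klf4, Icam1 and Irf1 were searched on both strands for a kappa B site, a CArG box and the cAMP response element TGACGTCA. Egr3 and Nos2 had no window in the table used. In the 250 bases before the RefSeq start, Fosb and 1 of the 2 windows of Irf1 held a kappa B site, which 7.25% of all 32851 such windows hold. Klf4, Icam1 and the other Irf1 window held no match to this spelling, which does not show that they lack a kappa B site. None of the windows searched held either of the other motifs (1.47% and 1.55% of all). The windows with a match are Fosb at chr7:19310046-19310295, minus strand, and Irf1 at chr11:53769764-53770013, plus strand, with the matched letters in capitals.
Fosb: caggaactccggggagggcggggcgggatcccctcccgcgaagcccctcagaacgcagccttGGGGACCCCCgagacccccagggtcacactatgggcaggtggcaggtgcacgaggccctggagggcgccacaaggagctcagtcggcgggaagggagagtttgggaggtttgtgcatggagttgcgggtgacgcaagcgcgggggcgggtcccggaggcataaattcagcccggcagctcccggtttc
Irf1: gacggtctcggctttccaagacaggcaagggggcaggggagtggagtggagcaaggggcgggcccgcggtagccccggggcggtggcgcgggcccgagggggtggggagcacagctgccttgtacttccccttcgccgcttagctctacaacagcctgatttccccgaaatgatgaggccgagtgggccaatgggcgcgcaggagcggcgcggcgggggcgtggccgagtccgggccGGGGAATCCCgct
The matches lie at positions 63 to 72 and 238 to 247, counted from the 5′ end of each window, and no binding was measured.

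TGF-beta and BMP response genes were above 0 in 21 of 22 cases with a median of 0.40, and 10 had an unadjusted p under 0.05, all higher. Nog, the secreted BMP antagonist noggin, was the 1 that passed: it counted 286, 439 and 463 against 131, 135, 162 and 197, with wild type at 52.0 to 180. The ANXA2 libraries were the highest of all 11, by 1.32 on the log2 scale (SE 0.21, adjusted p 0.0498 by limma), and the call was lost without 6 of the 7 libraries (0.0597 to 0.176). Id3, an inhibitor of basic helix-loop-helix factors, counted 22525, 14978 and 17186 against 10362, 10355, 8395 and 8679 (log2 difference 0.93, adjusted p 0.0682 by limma). Bmp2, a ligand, differed by 0.89 (adjusted p 0.194 by limma). These last 2 were named after their values were seen. The median was 0.29 without ANXA2 library 1.

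**Figure D4:**
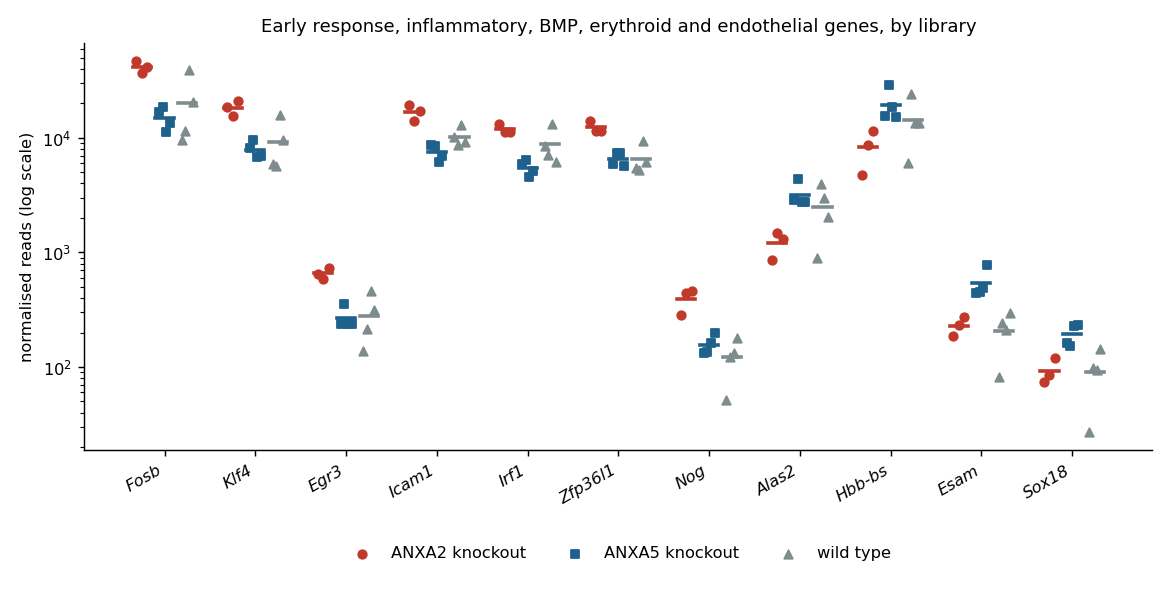
Normalised reads (log scale) in each library for 11 genes of the early response, inflammatory, BMP, erythroid and endothelial groups; symbols and bars are red circles for ANXA2 knockout (n = 3), blue squares for ANXA5 knockout (n = 4), grey triangles for wild type (n = 4) and lines for means. The knockouts do not overlap in any of the 11, while wild type library 3 reaches the ANXA2 range for Fosb, Klf4 and Irf1.

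Smpd3, the neutral sphingomyelinase that acts in vesicle release and bone mineralisation, counted 6761, 5005 and 4128 against 2775, 2325, 2612 and 2221. It was higher in the ANXA2 knockout by 1.07 (adjusted p 0.0401 by limma). Wild type ran from 1974 to 4115. Zfp36l1, which promotes the decay of AU-rich mRNAs, differed by 0.92 (adjusted p 0.0401), Thra, a thyroid hormone receptor, by 1.06 (0.0335) and Zfp703 by 0.75 (0.0106), all by limma. Rtn4, the reticulon Nogo, was higher by 0.65 (adjusted p 0.0485 by limma), and Cdkn1b, the cell cycle inhibitor p27, lower by -0.83 (adjusted p 0.0485 by limma). Zfp871 differed by -0.59. The call of Zfp703 was lost without ANXA2 library 3 (0.0761), and those of the other 6 without 5 or 6 of the 7 libraries, with adjusted p up to 0.142, 0.136, 0.141, 0.181, 0.169 and 0.157 for Smpd3, Zfp36l1, Thra, Rtn4, Cdkn1b and Zfp871.

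Immunoglobulin segments and unnamed transcripts gave large fold changes at low counts. Igkv8-30, a kappa light chain variable segment, counted 9.68, 18.9 and 25.1 in the ANXA2 knockout, 11.8 to 21.3 in wild type and 264, 323, 167 and 371 in the ANXA5 knockout. High in every ANXA5 library and no other, it differed by -3.93 (SE 0.36, adjusted p 0.00281 by limma). Another segment, Igkv6-17, counted 71.4, 151 and 67.4 against 13.5, 15.9, 20.2 and 17.4, the opposite direction, with 1 wild type library at 128. Its log2 difference was 2.37 (adjusted p 0.0235 by limma), and the call was lost without 5 libraries (0.0658 to 0.089). The B and plasma cell list of 19 tested genes had a median of -0.13 (-0.06 without ANXA2 library 1, -0.32 without ANXA2 library 4) and 0 calls by limma, 2 at an unadjusted p under 0.05, and its summed level was 44064 to 53889 in the ANXA2 and 43666 to 55151 in the ANXA5 knockout. Near-identical segments can share reads, so these values are uncertain.

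G530011O06Rik, on the X chromosome, counted 104, 42.8 and 54.8 against 2.53, 5.29, 2.89 and 2.49, with 5.37 to 13 in wild type, and differed by 3.93 (adjusted p 0.00587 by limma). All 3 groups were apart. It reached 10 normalised reads in the 3 ANXA2 libraries and in no ANXA5 library, so it was tested only through the group where it is high, and in 14 of the 18 alternatives. Capn11, a calpain, counted 36.3, 53.8 and 30.9 against 2.53, 6.35, 2.89 and 0.831, while 2 wild type libraries lay at 37.8 and 20.4. Its log2 difference was 3.45 (adjusted p 0.028 by limma), and it too was tested only through the ANXA2 libraries, in 14 alternatives. Gm21104, higher by 1.02, and 4930563E22Rik, which differed by -2.13, are the last 2 of the called genes described here. 4930563E22Rik reached 10 reads in the 4 ANXA5 libraries and in no ANXA2 library. The calls of Capn11, Gm21104 and 4930563E22Rik were lost without 3, 4 and 7 of the libraries, with adjusted p up to 0.089, 0.107 and 0.127.

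Markers of some other cells leaned to 1 side, but among the cell type marker lists only the erythroid one held a called gene. Of 14 tested erythroid genes 13 lay below 0, with a median of -0.93; 12 had an unadjusted p under 0.05 and in 10 the libraries did not overlap, while 5.91% of all genes were lower without overlap. Alas2, the heme synthesis enzyme of red cell precursors, was the 1 that passed, at 854, 1465 and 1298 against 2845, 4412, 2761 and 2771 (log2 difference -1.41, SE 0.22, adjusted p 0.0416 by limma). Wild type ran from 901 to 3970 and overlapped both groups. Hbb-bs, an adult beta globin, counted 4773, 8757 and 11592 against 15604, 28851, 18457 and 15376 (log2 difference -1.27, adjusted p 0.158 by limma). In each case the lowest ANXA5 library lay above the highest ANXA2 library. The summed erythroid level was 25080 to 50682 in the ANXA2 knockout, 59081 to 99777 in the ANXA5 knockout and 27681 to 84162 in wild type. In bulk RNA, fewer cells of a type and less RNA per cell cannot be told apart. The call of Alas2 was lost without 6 of the 7 libraries (adjusted p 0.0546 to 0.115), and the median was -0.62 without ANXA2 library 1.

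Endothelial markers were below 0 in 20 of 24 cases, with a median of -0.90, and 0 were called by limma or edgeR while DESeq2 called 11. At an unadjusted p under 0.05, 14 were lower and 1 was higher. Esam, an endothelial adhesion molecule, counted 186, 232 and 271 against 441, 448, 490 and 773 (log2 difference -1.20, adjusted p 0.0784 by limma). Sox18, a vascular transcription factor, counted 73.8, 84.6 and 120 against 163, 151, 229 and 231 (log2 difference -1.06, adjusted p 0.118 by limma). Both separated the knockouts, and wild type (81.5 to 299 and 27.2 to 143) lay with the ANXA2 group.
Gja5, the arterial connexin, picked after its values were seen, counted 16.9, 11 and 37.7 against 80.0, 67.7, 66.4 and 46.5, with 5.22 to 18.5 in wild type. Its log2 difference was -1.68 (adjusted p 0.134 by limma). Without Cd34 and Eng, which stromal cells also express, the other 22 markers summed to 6067, 8653 and 8082 normalised reads in the ANXA2 knockout, 8577, 9951, 11986 and 14057 in the ANXA5 knockout and 5041 to 8501 in wild type, so the highest ANXA2 sum lay just above the lowest ANXA5 sum. All 24 markers summed to 36920 to 48164 in the ANXA2 knockout, 36489 to 44914 in the ANXA5 knockout and 38286 to 57176 in wild type, which overlap. Most of that sum is Cd34, at 39816, 34644 and 26598 against 29791, 24669, 30723 and 27030 (log2 difference 0.25, adjusted p 0.543 by limma). The median was -0.66 without ANXA2 library 1.

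The medians of neutrophil and macrophage markers moved with the libraries in the fit. All 18 neutrophil genes lay below 0 with a median of -0.20, which became 0.08 without that library, and 21 of 22 macrophage genes lay below 0 with a median of -0.29, which became -0.08. Leaving out 1 library in turn gave medians of -0.56 to 0.08 and of -0.50 to -0.08, the lowest without ANXA2 library 4. In neither list was a gene called by limma, and 0 and 2 had an unadjusted p under 0.05. The summed neutrophil level was 356628 to 840288 in the ANXA2 and 525872 to 729449 in the ANXA5 knockout. The part of these cells in any of the differences above was not tested.

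Matrix genes differed by small amounts. Elastic fibre genes were above 0 in 22 of 24 cases (median 0.26), proteoglycans in 19 of 20 (median 0.30) and collagens in 17 of 21 (median 0.14), with 0 called by limma in each and 4, 6 and 0 at an unadjusted p under 0.05. Leaving out 1 library in turn gave medians of 0.21 to 0.38, 0.19 to 0.46 and -0.02 to 0.26, so that of the collagens fell below 0 without ANXA2 library 3. Vcan, the large proteoglycan versican, was the exception in its list: 3753, 4071 and 3792 against 6824, 5579, 5532 and 5623, with wild type at 5441 to 6190. The ANXA2 libraries were the lowest, by -0.60 (SE 0.11, adjusted p 0.0753 by limma). Adamts4, a protease that cuts such proteoglycans, counted 7958, 3546 and 8026 against 1868, 2444, 2308 and 1461, also apart (log2 difference 1.62, adjusted p 0.0784 by limma). Plat, tissue plasminogen activator and a ligand that ANXA2 binds, counted 9278, 6147 and 6928 against 4009, 4015, 4576 and 4352, with wild type at 5042 to 8188. It was the ANXA5 knockout that lay below wild type here (log2 difference 0.79, adjusted p 0.0778 by limma).

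Across the 48 lists, 11 held a called gene, and the medians ran from -0.93 (erythroid) to 0.71 (immediate early). The 37 lists with 0 calls by limma had medians from -0.90 to 0.30. The plot of the lists shows the early response, NF-kB and TGF-beta lists at the upper end and the endothelial and erythroid markers at the lower end.

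**Figure D5:**
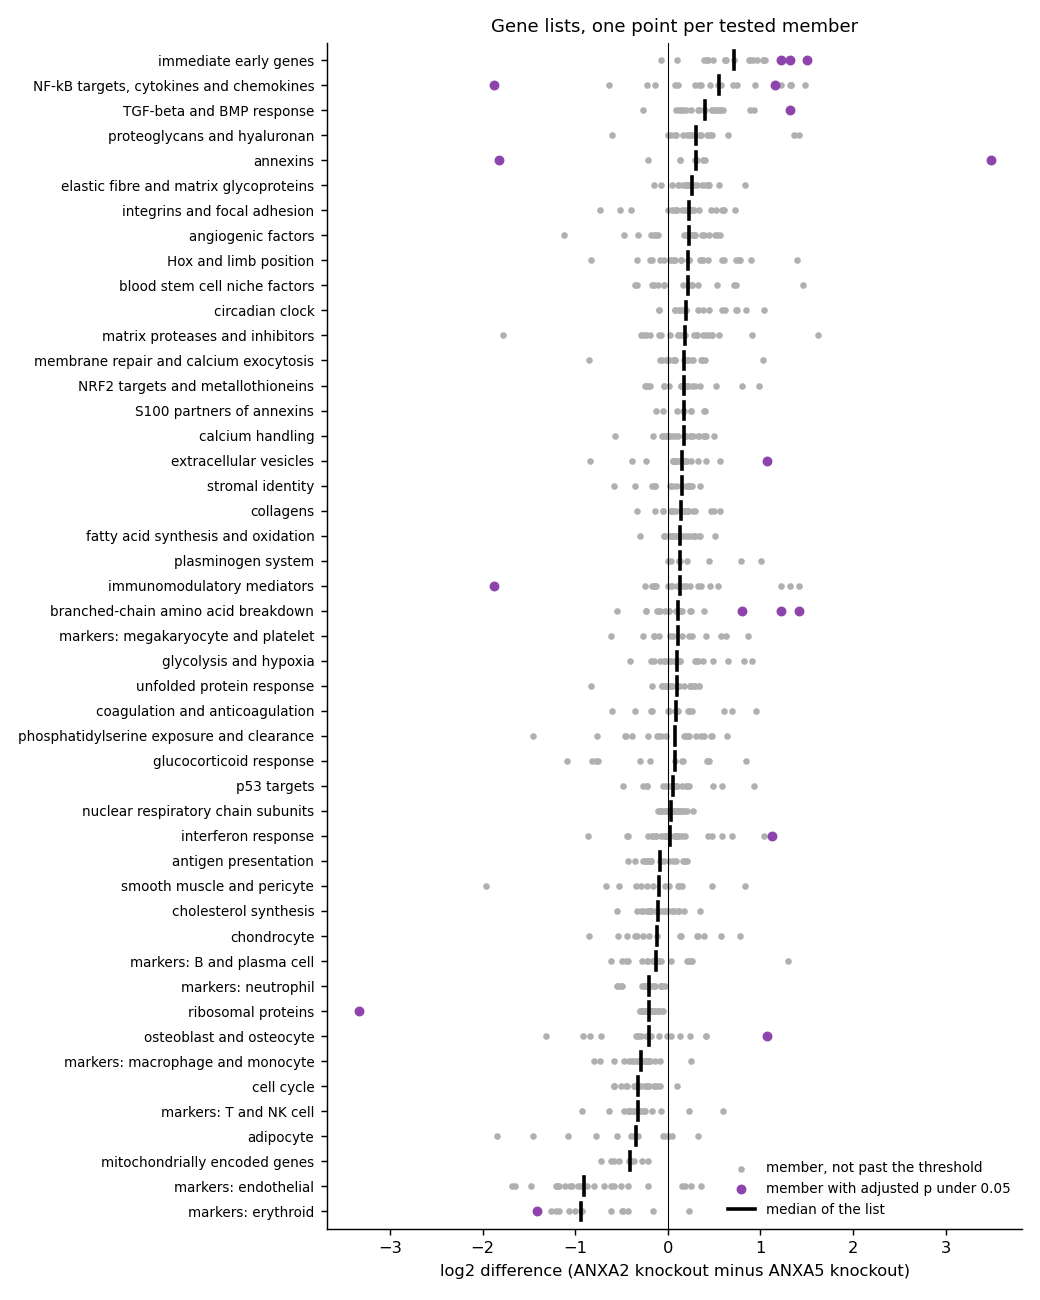
Log2 difference (ANXA2 knockout minus ANXA5 knockout) of each tested member of 47 gene lists, ordered by the list's median (black bar); the sex-linked list is left out. Purple points have an adjusted p under 0.05; the medians run from -0.93 for erythroid markers to 0.71 for immediate early genes.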

How the data were processed

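Per the labels' protocols, 8.7 ng of RNeasy-purified RNA per sample went into NEBNext libraries. Tools named in the submitters' processing notes, without versions, are DESeq2, HTSeq, STAR and Trim Galore, with the build GRCm39. The 2 deposited tables each hold 1 knockout with the same wild type libraries, as signal: reads divided by a size factor, by the authors. The log2 fold changes, the score (Wald statistic), and the p-values that the authors deposited were not used as results. Multiplied back by that factor, 100% of values were whole reads (tolerance 0.001), and wild type reads were identical in both tables in 100% of the 18712 shared genes. A gene that was at 0 in a knockout library is largely missing from a table, so a complete loss of expression could not be called. The 547 and 1089 genes in 1 table only entered no comparison, and 0 sample columns were left out.

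Reads of the 7 knockout libraries were scaled together by DESeq2 size factors (0.826 to 1.20), and wild type libraries to the same reference. limma-trend was run on log2 (normalised reads + 1), two-sided, with a filter of 10 reads in 3 libraries and Benjamini-Hochberg adjustment, so a fold change of a low gene is understated. R 4.3.3, limma 3.58.1, edgeR 4.0.16 and DESeq2 1.42.0 were used. Same-numbered libraries of the 2 knockouts are not stated to share an animal. The members and 48 gene lists were chosen with earlier results of these data known. Named genes were the annexins and S100 partners, the 12 highest and 12 lowest called genes with a mean of at least 50, the 3 smallest adjusted p each way, up to 4 called members of each list, otherwise 2 by smallest p, and the most abundant marker of each cell type; others are said to be later choices. Other called genes are also described, and a result is not reported here for 1 item. Chromosomes and distances come from GENCODE M21 on GRCm38, matched for 99.8% of tested genes, promoters from RefSeq. A simulated table for this comparison (16344 genes, with 200 changed) drew noise independently for each gene. In it limma recovered 65% of 2-fold and 91% of 4-fold changes with 13 false calls, and DESeq2 68% and 92% with 34. Alternatives were TMM, edgeR, DESeq2, limma-voom, other pseudocounts and filters, all 11 libraries, Xist as a covariate, a replicate block and leaving out each library.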

Additional observations from a re-analysis of the deposited data

Results flagged for a closer look

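In groups of 4 libraries, 21 of 308 gene and genotype groups (6.82%) held a library whose gap to the nearest other was above Dixon's limit for 4 values, and chance flags about 1 in 20. Of these, 12 were in the ANXA5 knockout and 9 in wild type, and the 3 ANXA2 libraries are too few to be looked at. All values are normalised reads.

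ANXA5 knockout library 2 stood apart most often. It was high for Egr3 (356, others 235 to 239), Alas2 (4412, others 2761 to 2845), Ccl2 (3205, others 788 to 1133), Errfi1 (25568, others 14408 to 16090) and G530011O06Rik (5.29, others 2.49 to 2.89), and low for Anxa6 (6542, others 7751 to 7899) and Kdm5c (2439, others 3181 to 3279). It is also the ANXA5 library in which Xist is at 2.12. ANXA5 library 4 was high for Esam (773, others 441 to 490), Thrsp (115, others 45.5 to 52.9) and Cd36 (2493, others 892 to 1162). ANXA5 library 3 was high for Cdkn1b (581, others 464 to 481), and library 1 for Vcan (6824, others 5532 to 5623).

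Among wild type libraries, library 1 was high for Plac9a (4277, others 3276 to 3446) and Lrmda (17.7, others 6.52 to 8.32) and low for Cd36 (393, others 707 to 761) and Pdgfa (353, others 440 to 451). Library 2 was high for Igkv6-17 (128.5, others 10.7 to 17.7). Library 3 was high for Sox9 (3371, others 2101 to 2192) and Tyro3 (451, others 339 to 352). Library 4 was high for Nkg7 (1516, others 635 to 783) and low for Ahnak (20339, others 22624 to 22777).

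Genes found in 1 deposited table only could not be compared between the knockouts, and 3 of them lay well above wild type. Erdr1 had a mean of 496 (366 to 733) in the ANXA2 knockout and 0 to 3.49 in wild type. Gm11868 had a mean of 115 (88.8 to 128) in the ANXA2 knockout and 4.24 to 8.29 in wild type. Ighg1, the constant region of IgG1, had a mean of 606 (190 to 1181) in the ANXA5 knockout and 0 to 63.7 in wild type. These values are on the scale of their own table.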

How the results depend on the processing

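Anxa2 and Anxa5 stayed on their side of the threshold in all 18 alternatives, with log2 differences of -1.98 to -1.70 and 3.38 to 3.62 when 1 library was left out, and none of the 43 called genes changed direction. Beside the 43 calls, DESeq2 made 527, with 340 higher and 187 lower, a call in 28 of the 48 lists where limma had one in 11, 170 with wild type at the ANXA5 level alone and 63 on chromosome 9. In simulated data DESeq2 made 34 false calls and limma 13; the cause of the larger count was not tested. With Xist as a covariate 17 genes were called higher and 17 had wild type at the ANXA5 level alone. A replicate block by column number called 89 genes, 55 higher and 34 lower, of which 29 are among the 43. After the mean of each knockout was subtracted per gene, same-numbered libraries correlated at 0.10, -0.03 and -0.09. They are not stated to share more than the number. Without that subtraction, libraries of the 2 knockouts correlated at 0.969 to 0.985. Leaving out 1 library gave 10 to 95 calls, 5 to 52 higher, 5 to 43 lower, 3 to 13 lists with a call, 6 to 31 with wild type at the ANXA5 level alone and 4 to 21 on chromosome 9; where an arm lost a library, fewer samples were fitted. TMM called 40, edgeR 42, limma-voom 42, and the fit of all 11 libraries 51, of which 25 are among the 43. Of 112 named genes that were not called, 5 changed sign somewhere. With 7 libraries 65% of simulated 2-fold changes were found, so differences can be missed. The simulation held no shift shared by the genes of a library, so its shares may not hold for the real libraries. Larger differences were missed too: Adamts4, apart by 1.62 on the log2 scale, did not pass (adjusted p 0.0784 by limma).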

Other observations

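Mitochondrially encoded genes lay below 0 in all 10 tested cases in the ANXA2 knockout, with a median log2 difference of -0.41 and 6 at an unadjusted p under 0.05, while the 26 nuclear respiratory chain subunits had a median of 0.04, or 0.06 without ANXA2 library 1, and 0 at that level. Neither list held a gene called by limma. All 26 ribosomal protein genes, Rpl29 included, lay below 0 as well, with a median of -0.20 that became -0.09 without ANXA2 library 1, and 24 of 25 cell cycle genes did, with a median of -0.32 that became -0.11. Circadian clock genes were above 0 in 17 of 19 cases (median 0.19, and 0.18 to 0.39 on leaving out 1 library), with 6 at an unadjusted p under 0.05 and 0 called by limma.

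Adipocyte genes lay below 0 in 11 of 14 cases (median -0.35, and -0.19 without ANXA2 library 1), with 4 at an unadjusted p under 0.05 and 0 called by limma. Thrsp, a lipogenic gene, counted 21.8, 19.9 and 9.14 against 45.5, 45.5, 52.9 and 115 (log2 difference -1.84, adjusted p 0.125 by limma). Cd36, a fatty acid receptor that endothelial cells also carry, counted 345, 681 and 451 against 1162, 892, 1105 and 2493 (log2 difference -1.46, adjusted p 0.137 by limma). In both the knockouts were apart.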
